A study of Danio rerio with 8 samples.

Results

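Genes of nucleolar ribosome assembly were followed in bulk RNA sequencing of zebrafish (Danio rerio) hearts. The set holds 49 of the 31953 genes in the count table and was picked by symbol, with no measured value in the rule. It takes the numbered nop, utp and rrp genes, polr1a to polr1e, gnl2, gnl3 and gnl3l, and npm1a and npm1b, by the symbols of the deposited table. nop14, named only in a separate table of gene names, was not counted. The rule also takes nhp2, gar1, dkc1, fbl, ncl, bop1, pes, nolc1, mybbp1a, rrs1, nip7, nob1, wdr12, wdr43, wdr75, ddx10, ddx18, ddx21 and nat10. All 49 passed the filter on low counts and were tested.

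The 8 libraries formed 4 groups of 2. Young hearts came from untreated larvae 3 days old, with about 500 hearts in each pool. Control hearts came from uninjured adults of about 6 months and are labelled as day 0 after the vehicle, 0.1% DMSO, whereas the protocol describes day 0 hearts as collected before the drug. The 3 dpi and 7 dpi hearts (days post injury) came from adults collected 3 and 7 days after 5 mM metronidazole in 0.1% DMSO for 48 hours. Each adult pool held 4 to 6 hearts. The injury model is vmhc:mCherry-NTR, in which the promoter of the ventricular myosin gene vmhc drives a bacterial nitroreductase that turns metronidazole into a toxin in ventricular cardiomyocytes. The labels do not name the fish line of each library, and the protocol also lists wild-type AB, hsWnt8:GFP and hsDKK1:GFP fish. No group received metronidazole without ablation, so drug and ablation cannot be told apart. Whether the pools of a group stem from different clutches or treatments is not stated, so p-values reflect only how far such pools differ, which may be technical.

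In the nucleolus, RNA polymerase I transcribes the long precursor of the ribosomal RNAs. Small nucleolar ribonucleoproteins (snoRNPs) mark it: those with box C/D RNAs carry the methyltransferase fibrillarin, and those with box H/ACA RNAs carry the pseudouridine synthase dyskerin. The U3 small subunit processome then folds and cuts the part that becomes the small subunit, a separate chain of factors builds the large subunit, and GTPases, helicases and abundant nucleolar phosphoproteins act along the way. The roles given here for single genes were mostly worked out in yeast and mammalian cells. Ribosome assembly is known to track cell growth and to be a major target of Myc transcription factors and mTOR signalling.

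Total counts per library lay between 10868019 and 26628897. The 7 dpi libraries stood apart from the other 6. They detected 18744 and 17785 genes, against 20660 to 23312 elsewhere, and the 13 mitochondrially encoded genes took 24.7% and 28.2% of their counts, against 7.14% to 15.3%. Their TMM scaling factors, which align libraries on the bulk of their genes, were 0.418 and 0.452, against 0.956 to 1.60. Directions at 7 dpi therefore depend on the scaling, and values under plain library totals are given beside them. Prefixes in the names of the library columns are shared by control and 3 dpi, whereas 7 dpi and young hearts each have their own, so prefix and group cannot be told apart in comparisons that involve 7 dpi or young hearts. All 13 cardiomyocyte markers were detected in every group, and they took 0.756% and 0.765% of counts in young hearts, 6.68% and 6.55% in control, 3.19% and 5.28% at 3 dpi and 6.82% and 5.56% at 7 dpi.

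Before any TMM scaling, the 49 assembly genes together took 0.439% and 0.368% of all counts in young hearts, 0.175% and 0.161% in control, 0.309% and 0.285% at 3 dpi, and 0.126% and 0.111% at 7 dpi. Young and 3 dpi libraries were above control, and 7 dpi libraries below it. As CPM, counts scaled to a common library size, here with TMM factors, the sums were 2816 and 2310 in young hearts, 1555 and 1689 in control, 2123 and 2103 at 3 dpi, and 3013 and 2448 at 7 dpi. On that scale the 7 dpi libraries were above control. CPM are not divided by gene length, so they compare libraries for a gene and not genes with each other.

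**Figure D1:**
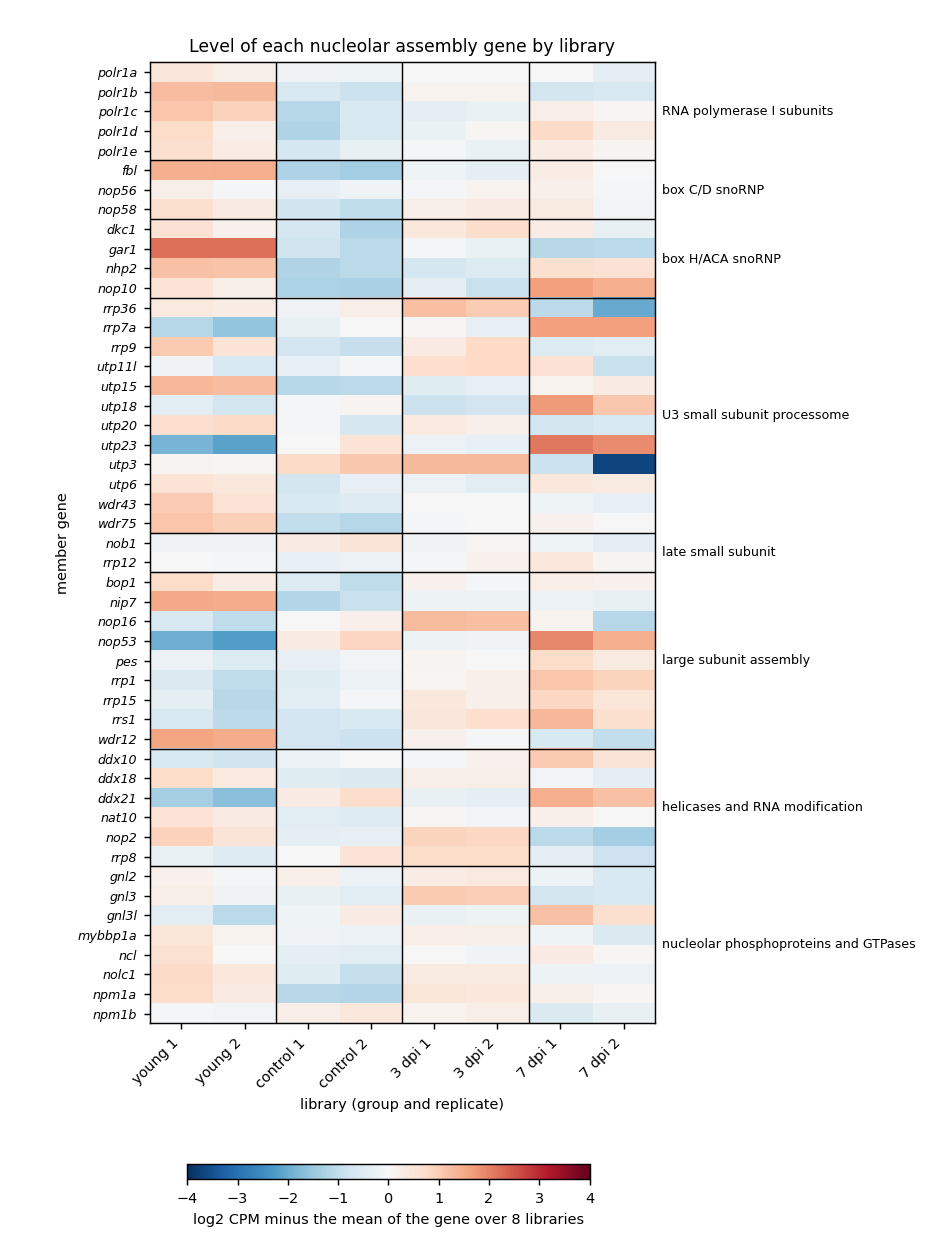
Level of each of the 49 genes (rows, by role) in each of the 8 libraries (columns), as log2 TMM-scaled CPM minus the gene's mean over the 8 libraries. Most snoRNP rows are blue in the control columns, young columns are red for gar1 and blue for utp23 and nop53, and the darkest cell is utp3 in 7 dpi replicate 2.

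Both control libraries were the lowest of all 8 for 21 of the 49 genes, a pattern held by 6.39% of all genes tested. These 21 are bop1, ddx18, dkc1, fbl, nat10, ncl, nhp2, nip7, nolc1, nop10, nop56, nop58, npm1a, polr1c, polr1d, polr1e, rrp12, rrp9, utp15, wdr43 and wdr75. Only nob1, an endonuclease of late small subunit maturation, and npm1b, a nucleophosmin gene, had both control libraries highest (2 of 49, against 6.82% of all genes). Young libraries were the highest for 18 genes (32.4% of all genes) and the lowest for 7 (23.0%). The 3 dpi libraries were the highest for 7 genes (9.48%): gnl2, gnl3, nop16, rrp36, rrp8, utp11l and utp3. They were the lowest for 1, utp18 (6.08%). The 7 dpi libraries were the highest for 11 (19.1%) and the lowest for 7 (22.0%). These orders use TMM scaling.

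At 3 dpi, early after ablation, assembly genes were mostly higher than in control hearts. Of the 49 genes 16 rose and 1, ddx21, fell, where 9.05% of all genes tested rose and 6.55% fell, 15.6% in all. Fold changes were above 0 for 41 genes, with a median log2 fold change of 0.54, against 0.003 over all genes. Both 3 dpi libraries lay above both control libraries for 39 genes (29.3% of all genes) and below them for 7 (27.3%). Under library totals 35 rose and 0 fell, where 18.2% of all genes rose and 2.78% fell, with a median of 1.00 against 0.44 over all genes. A change of scaling shifts all genes nearly alike, so the distance of the set's median from that of all genes is almost fixed and is no check of the result. In bulk hearts fewer cells of a type and less RNA per cell cannot be told apart, nor can more cells and more RNA per cell.

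Among polymerase I subunits, 1 of 5 rose, polr1b, at 0.86 (SE 0.24, adjusted p = 0.0360). That call was lost on leaving out any control, 3 dpi or young library, with adjusted p between 0.0584 and 0.162. The largest subunit gene polr1a (ENSDARG00000098375) had 32.4 and 33.0 CPM at 3 dpi, against 30.0 and 29.3 CPM in control, a log2 fold change of 0.14 (SE 0.21, adjusted p = 0.711). Its libraries were close in level across these groups. Box C/D snoRNP genes rose in 2 of 3 cases, fbl and nop58. The gene of fibrillarin, fbl (ENSDARG00000053912), had 77.9 and 66.5 CPM at 3 dpi, against 37.5 and 33.2 CPM in control, so every 3 dpi library was above every control library (1.03, SE 0.21, adjusted p = 0.0101). It did not pass without control replicate 2 (0.95, adjusted p = 0.0687) or without 3 dpi replicate 1 (0.92, adjusted p = 0.0618). nop56 (ENSDARG00000012820), which encodes a core protein of the same particle, had 113 and 130.1 CPM at 3 dpi, against 93.3 and 107 CPM in control. That difference did not pass (0.28, SE 0.21, adjusted p = 0.419).

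Box H/ACA snoRNP genes rose in 2 of 4 cases, dkc1 and gar1. The dyskerin gene dkc1 (ENSDARG00000016484) had 46.8 and 57.0 CPM at 3 dpi, against 21.9 and 14.9 CPM in control. The groups did not overlap and the log2 fold change was 1.50 (SE 0.28, adjusted p = 0.00674), a call lost without control replicate 2 (1.25, adjusted p = 0.0665). gar1 (ENSDARG00000076526), a core protein gene of the particle, had 25.8 and 22.6 CPM at 3 dpi, against 15.7 and 12.9 CPM in control (0.77, SE 0.20, adjusted p = 0.0288). It did not pass without control replicate 2 (adjusted p = 0.154), 3 dpi replicate 1 (0.163) or either young library (0.0720 and 0.0719). The others, nhp2 and nop10, had fold changes of 0.52 and 0.68 that did not pass.

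Processome genes rose in 3 of 12 cases, rrp9, utp15 and wdr75, and none fell. wdr43 (ENSDARG00000077264), of the processome, had 58.3 and 58.5 CPM at 3 dpi, against 37.5 and 40.8 CPM in control, without overlap and without passing (0.58, SE 0.21, adjusted p = 0.0967). Of 9 large subunit factors nip7, rrs1 and wdr12 rose. nop53 (ENSDARG00000100452), whose yeast counterpart recruits the exosome to large subunit precursors, went the other way without passing, with 92.5 and 95.9 CPM at 3 dpi, against 134 and 195 CPM in control (-0.80, SE 0.26, adjusted p = 0.0642). Neither late small subunit gene passed. Of these, rrp12 (ENSDARG00000022410), an export factor of subunit precursors, had 63.2 and 74.4 CPM at 3 dpi, against 52.0 and 55.3 CPM in control (0.36, adjusted p = 0.273).

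Helicases and RNA-modifying enzymes held both directions. nop2 (ENSDARG00000043304), which encodes a cytosine methyltransferase of large subunit RNA, had 39.7 and 37.5 CPM at 3 dpi, against 16.6 and 16.8 CPM in control (1.21, SE 0.23, adjusted p = 0.00718). ddx18 also rose, by 0.77 (SE 0.21), and missed the threshold on leaving out any control, 3 dpi or young library, with adjusted p between 0.0623 and 0.154. ddx21 (ENSDARG00000063626), an RNA helicase gene linked in mammals to polymerase I transcription and rRNA processing, had 111 and 104 CPM at 3 dpi, against 172 and 224 CPM in control. It was the sole gene of the set that fell (-0.88, SE 0.24, adjusted p = 0.0297). That call was lost without control replicate 2 (adjusted p = 0.164), 3 dpi replicate 1 (0.118), 3 dpi replicate 2 (0.0870) or either young library (0.0575 for each), and under library totals (-0.43, adjusted p = 0.164).

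Nucleolar phosphoprotein and GTPase genes rose in 3 of 8 cases, npm1a, gnl3 and nolc1. Nucleophosmin is coded by npm1a (ENSDARG00000014329) and npm1b (ENSDARG00000037675). npm1a had 231 and 221 CPM at 3 dpi, against 76.2 and 72.8 CPM in control (1.60, SE 0.23, adjusted p = 0.00185). npm1b had 14.2 and 14.9 CPM at 3 dpi, against 15.3 and 17.0 CPM in control, and did not pass (-0.15, SE 0.24, adjusted p = 0.724). gnl3 (ENSDARG00000006219), the gene of the nucleolar GTPase nucleostemin, had 41.9 and 39.9 CPM at 3 dpi, against 16.4 and 14.8 CPM in control (1.39, SE 0.22, adjusted p = 0.00339). The nucleolin gene ncl (ENSDARG00000002710) had 343 and 316 CPM at 3 dpi, against 261 and 251 CPM in control, without passing (0.36, SE 0.26, adjusted p = 0.389).

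The count at 3 dpi rested on few libraries. It fell on leaving out any single library. The number of all genes that rose also fell without either control library, 3 dpi replicate 1 or either young library. That number did not fall without 3 dpi replicate 2 or either 7 dpi library. The set's median was 0.64 without control replicate 2, 0.57 without 3 dpi replicate 1 and 0.47 without control replicate 1. Over all genes it was 0.02, 0 and 0. With only control and 3 dpi in the fit, 11 rose and 0 fell, where 6.83% of all genes rose and 4.47% fell. gnl3, nop2 and npm1a remained called under every alternative tried. The mitochondrial share was 7.14% and 9.54% at 3 dpi, against 14.9% and 15.3% in control. Markers of other cells moved in the same libraries. Macrophage markers rose in 14 of 18 cases and fell in 0, with 0.405% and 0.215% of counts at 3 dpi against 0.117% and 0.128% in control and no marker at 0 in either group. Smooth muscle markers rose in 7 of 7 cases, with 0.125% and 0.106% of counts at 3 dpi against 0.0238% and 0.0131% in control. Their part in the result was not tested.

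**Figure D2:**
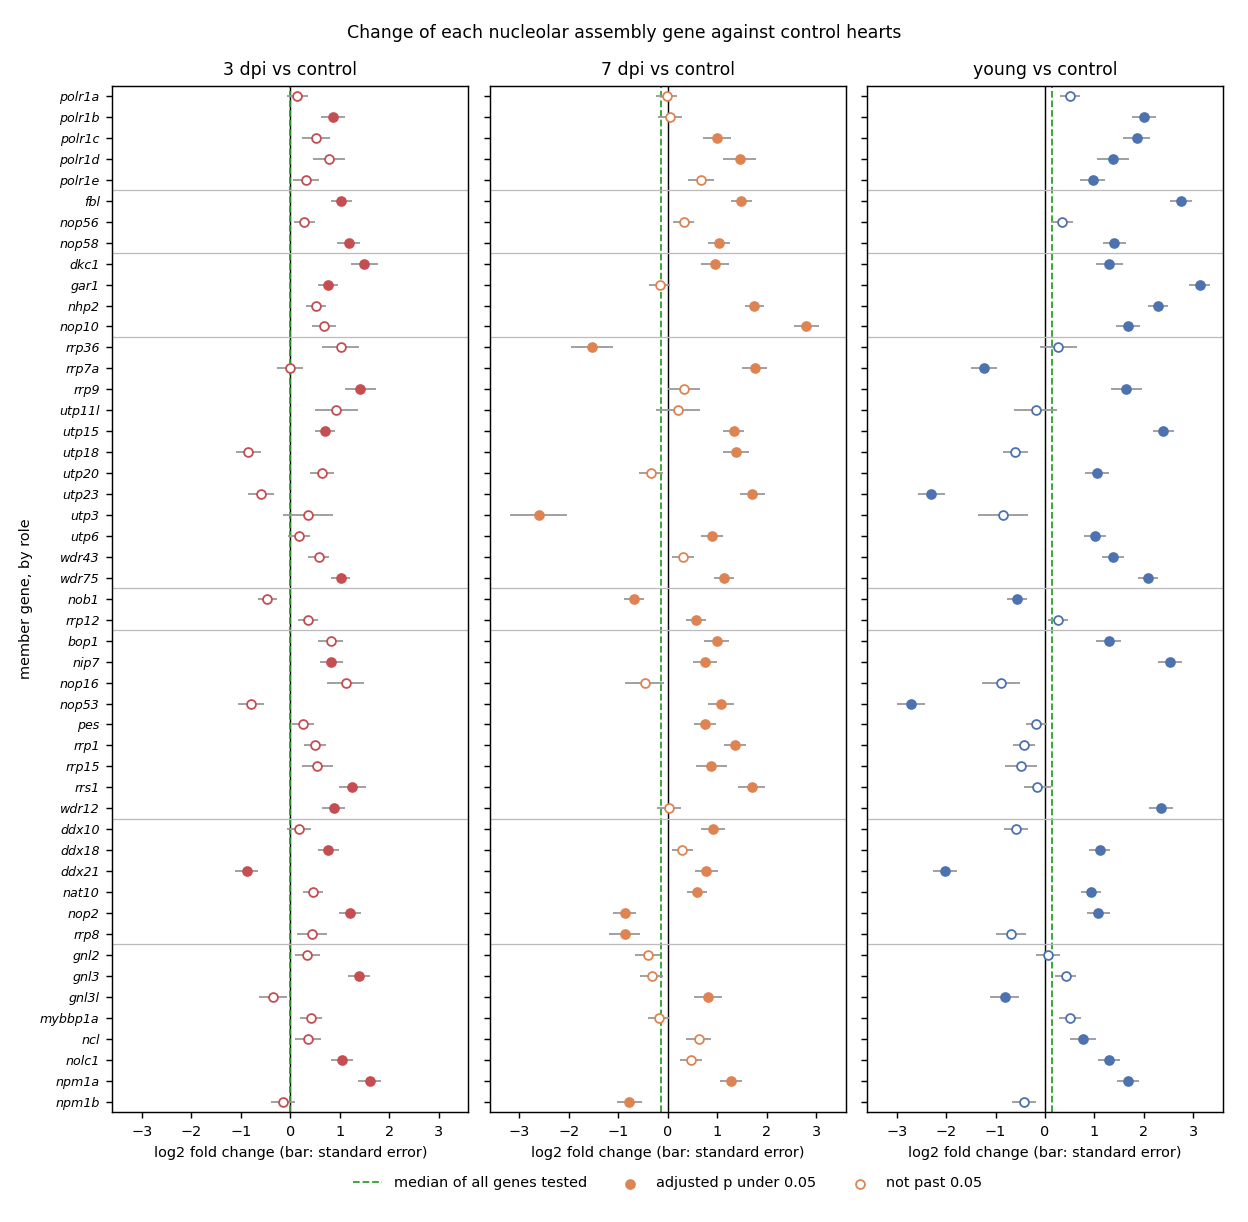
Log2 fold change (x axis, bars are standard errors) of each of the 49 genes (rows, grouped by role) against control at 3 dpi, 7 dpi and in young hearts, from the TMM-scaled fit; filled points passed an adjusted p of 0.05 and dashed lines mark the median of all genes tested. At 3 dpi 16 genes passed to the right and 1 to the left, where 9.05% of all genes rose and 6.55% fell. At 7 dpi 26 and 6 passed, where 18.7% of all genes rose and 20.0% fell. Under library totals the 7 dpi counts were 2 and 23, where 3.77% of all genes rose and 57.1% fell. In young hearts 25 and 6 passed, where 32.6% of all genes rose and 27.6% fell.

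At 7 dpi the set divided, with H/ACA genes nop10 and nhp2 higher than in control and utp3, rrp36 and nop2 lower. Of the 49 genes 26 rose and 6 fell with TMM, where 18.7% of all genes rose and 20.0% fell, 38.7% in all, whereas 2 rose and 23 fell under library totals, where 3.77% of all genes rose and 57.1% fell. The median log2 fold change was 0.67 with TMM, against -0.13 over all genes, and -0.57 with library totals, against -1.37 over all genes. Both 7 dpi libraries lay above both control libraries for 33 genes (31.0% of all genes) and below them for 8 (37.3%) with TMM. The genes that rose with TMM were polr1c and polr1d, fbl and nop58, dkc1, nhp2 and nop10, rrp7a, utp15, utp18, utp23, utp6 and wdr75, bop1, nip7, nop53, pes, rrp1, rrp15 and rrs1, ddx10, ddx21 and nat10, rrp12, gnl3l and npm1a. Of the 32 calls, 8 remained with the same sign under library totals and 15 turned their sign.

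nop10 (ENSDARG00000104227), the gene of a small core protein of box H/ACA particles, had 70.1 and 60.4 CPM at 7 dpi, against 9.34 and 9.32 CPM in control. This was the largest rise among the 49 genes at 7 dpi (2.80, SE 0.25, adjusted p = 0.000172), and it passed with library totals as well (1.55, adjusted p = 0.00106). nhp2 (ENSDARG00000069422), of the same particle, had 47.1 and 45.6 CPM at 7 dpi, against 13.0 and 14.4 CPM in control (1.75, SE 0.20, adjusted p = 0.000310). It too passed with library totals, at 0.51 (adjusted p = 0.0394). These were the 2 genes of the set that rose under both scalings. gar1, their partner, had 12.6 and 12.8 CPM at 7 dpi, against 15.7 and 12.9 CPM in control (-0.16, SE 0.21, adjusted p = 0.562).

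fbl had 109 and 89.6 CPM at 7 dpi, against 37.5 and 33.2 CPM in control (1.49, SE 0.21, adjusted p = 0.000734). Under library totals its fold change was 0.22 and did not pass (adjusted p = 0.399). rrp7a (ENSDARG00000098934), a processome gene, had 42.8 and 43.1 CPM at 7 dpi, against 11.3 and 14.0 CPM in control, without overlap (1.76, SE 0.26, adjusted p = 0.000856). It likewise missed the threshold under library totals (0.51, adjusted p = 0.126). Of 9 large subunit factors 7 rose and 0 fell with TMM, whereas 0 rose and 2 fell with library totals. In the processome 6 of 12 rose and 2 fell with TMM, against 0 and 5 with library totals. Of all genes 18.7% rose and 20.0% fell with TMM, and 3.77% and 57.1% with library totals.

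Among the genes that fell, utp3 (ENSDARG00000056720), of the processome, had 5.30 and 0.747 CPM at 7 dpi, against 16.3 and 20.1 CPM in control (-2.61, SE 0.57, adjusted p = 0.00541). Its raw counts at 7 dpi were 58 and 9, against 199 and 341 in control, so the 7 dpi levels rest on few reads and its replicates differ widely. rrp36 (ENSDARG00000032516), of the same complex, had 2.10 and 1.08 CPM at 7 dpi, against 3.93 and 5.19 CPM in control (-1.53, SE 0.42, adjusted p = 0.0156). Leaving out control replicate 2 ended this call (adjusted p = 0.0621), as did leaving out 7 dpi replicate 2 (0.0733). nop2 had 10.1 and 8.22 CPM at 7 dpi, against 16.6 and 16.8 CPM in control (-0.87, SE 0.24, adjusted p = 0.0154), a call lost without 7 dpi replicate 2 (adjusted p = 0.0878). nob1, npm1b and rrp8 also fell with TMM. The call of rrp8 (-0.87) was lost with DESeq2 (adjusted p = 0.0582) and with DESeq2 size factors in edgeR (0.0597). That of npm1b (-0.77) was lost with only the 2 groups compared (adjusted p = 0.0540). The fold of nob1 was -0.68, and -0.59 without control replicate 2. All 6 had negative fold changes that passed under library totals. This is no check, since 57.1% of all genes fell under that scaling.

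Without control replicate 1 or without 7 dpi replicate 1 fewer genes rose at 7 dpi, in the set and over all genes. The set's median was then 0.60 and 0.50, against -0.07 and -0.20 over all genes. In both fits the rises of ddx10, ddx21, gnl3l, nat10, nip7, nop53, pes, polr1c, rrp12, rrp15 and utp6 no longer passed. Without control replicate 2 or without 7 dpi replicate 2 fewer genes fell, again in the set and over all genes. The share of mitochondrial transcripts moved in the same libraries (24.7% and 28.2% at 7 dpi against 14.9% and 15.3% in control). So did smooth muscle markers, with 7 of 7 higher with TMM, 4 of 7 with library totals, and 0.0672% and 0.0883% of counts at 7 dpi against 0.0238% and 0.0131% in control. Of 9 skeletal muscle markers 7 rose and 0 fell, or 4 and 1 with library totals, with myhz2 at 0 in both groups. They took 0.543% and 0.492% of counts at 7 dpi against 0.406% and 0.475% in control. Of 7 neutrophil markers 0 rose and 5 fell, or 0 and 7 with library totals. Of 7 lymphocyte markers tested 0 rose and 4 fell, or 0 and 6. Of 18 macrophage markers 1 rose and 6 fell, or 0 and 12. Of 13 cardiomyocyte markers 6 rose and 4 fell, or 2 and 5. Their part was not tested.

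Between 7 dpi and 3 dpi, 12 of the 49 genes were higher and 14 lower at 7 dpi with TMM, where 22.8% of all genes were higher and 28.1% lower, 50.9% in all. Library totals turned this into 0 higher and 42 lower, where 4.47% of all genes were higher and 67.6% lower. The median of the set was 0.04 against -0.21 over all genes with TMM, and -1.65 against -1.89 with library totals. The shares of genes called in the set were near those of all genes. The genes higher at 7 dpi were rrp7a, utp15, utp18, utp23, utp6, nhp2, nop10, ddx10, ddx21, nop53, rrp1 and gnl3l. Those lower were polr1b, rrp36, rrp9, utp20, utp3, gar1, nop2, rrp8, nop16, wdr12, gnl2, gnl3, mybbp1a and nolc1.

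nop2 had 10.1 and 8.22 CPM at 7 dpi, against 39.7 and 37.5 CPM at 3 dpi, the smallest p among the genes that fell (-2.08, SE 0.24, adjusted p = 9.49e-05). gnl3 had 12.0 and 13.0 CPM at 7 dpi, against 41.9 and 39.9 CPM at 3 dpi (-1.71, SE 0.23, adjusted p = 0.000199). Both were called at 3 dpi above control and at 7 dpi below 3 dpi. rrp36 had 2.10 and 1.08 CPM at 7 dpi, against 9.90 and 8.67 CPM at 3 dpi (-2.55, SE 0.42, adjusted p = 0.000641). utp3 had 5.30 and 0.747 CPM at 7 dpi, against 23.6 and 23.4 CPM at 3 dpi (-2.97, SE 0.57, adjusted p = 0.00168). These 4 falls passed in every alternative tried. For library totals this is no check, since they lowered the median over all genes from -0.21 to -1.89.

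In the other direction, utp23 (ENSDARG00000105012), a processome gene, had 51.5 and 44.3 CPM at 7 dpi, against 9.96 and 9.45 CPM at 3 dpi (2.30, SE 0.26, adjusted p = 8.73e-05). Under library totals it stood at 0.60 and just missed the threshold (adjusted p = 0.0516). nop10 had 70.1 and 60.4 CPM at 7 dpi, against 17.7 and 12.4 CPM at 3 dpi (2.12, SE 0.24, adjusted p = 9.51e-05, or 0.41 and adjusted p = 0.170 with library totals). utp18 (ENSDARG00000102618), also of the processome, had 60.8 and 39.4 CPM at 7 dpi, against 10.4 and 11.0 CPM at 3 dpi (2.23, SE 0.27, adjusted p = 0.000112, or 0.53 and adjusted p = 0.0834 with library totals). No rise between 3 and 7 dpi passed under library totals. Comparisons of 7 dpi and of 3 dpi with control share the control libraries.

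A rise at 3 dpi over control and a fall at 7 dpi against 3 dpi were both called for gar1, gnl3, nolc1, nop2, polr1b, rrp9 and wdr12. These are 7 of 49 genes, against 6.43% of all genes tested. Only gnl3 and nop2 of the 7 kept both calls without any 1 library. The fall of nolc1 was also lost with DESeq2 (adjusted p = 0.0586) and with DESeq2 size factors in edgeR (0.0612). gar1, for example, had 12.6 and 12.8 CPM at 7 dpi, against 25.8 and 22.6 CPM at 3 dpi (-0.93, SE 0.20, adjusted p = 0.00359). The 7 genes are spread over polymerase I, box H/ACA particles, the processome, large subunit assembly, RNA modification and the phosphoproteins. Macrophage markers were lower at 7 dpi than at 3 dpi in 16 of 18 cases and higher in 0, with 0.0475% and 0.0474% of counts at 7 dpi against 0.405% and 0.215% at 3 dpi, and their part was not tested.

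**Figure D3:**
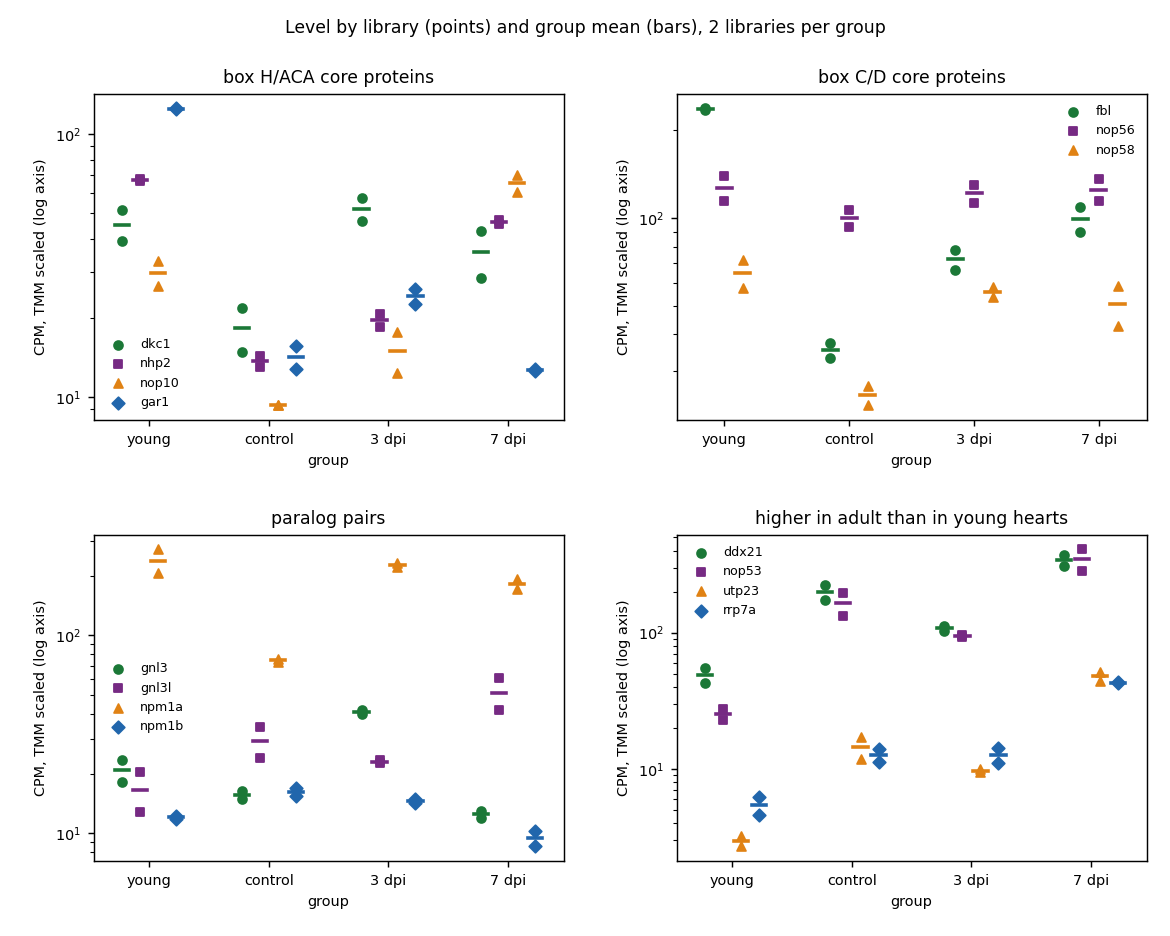
TMM-scaled CPM (log axis) of 15 genes in each library (points) with the mean of each group of 2 (bars), in panels for box H/ACA proteins, box C/D proteins, paralog pairs and genes lower in young than in control hearts. On this scale nop10 is highest and gar1 lowest at 7 dpi, gnl3 is highest at 3 dpi, and ddx21, nop53, utp23 and rrp7a are highest at 7 dpi and lowest in young hearts, though under library totals the folds of ddx21 (-0.47) and nop53 (-0.17) at 7 dpi were negative against control. CPM are not per length, so libraries are compared within a gene and not genes with each other.

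In young hearts 6 of the 7 snoRNP genes were higher than in control hearts, and a few processome, large subunit and helicase genes were lower. Of the 49 genes 25 rose and 6 fell, where 32.6% of all genes rose and 27.6% fell, 60.2% in all. Library totals gave 31 and 3, where 44.7% of all genes rose and 17.5% fell. The median log2 fold change was 0.77, against 0.14 over all genes, or 1.37 against 0.75 with library totals. With TMM it was 0.44 against 0.16 without young replicate 1, and 1.00 against 0.09 without young replicate 2, so it depends on single young libraries. Both young libraries lay above both control libraries for 31 genes (45.3% of all genes) and below them for 13 (38.4%). The genes that rose were polr1b, polr1c, polr1d and polr1e, fbl and nop58, dkc1, gar1, nhp2 and nop10, rrp9, utp15, utp20, utp6, wdr43 and wdr75, bop1, nip7 and wdr12, ddx18, nat10 and nop2, and ncl, nolc1 and npm1a. Those that fell were rrp7a, utp23, ddx21, nop53, nob1 and gnl3l.

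gar1 showed the largest rise, with 124 and 125 CPM in young hearts, against 15.7 and 12.9 CPM in control (3.13, SE 0.21, adjusted p = 1.86e-06). fbl followed, with 235 and 238 CPM in young hearts, against 37.5 and 33.2 CPM in control (2.74, SE 0.22, adjusted p = 4.50e-06). All 4 H/ACA genes rose, and nhp2 had 67.8 and 66.5 CPM in young hearts, against 13.0 and 14.4 CPM in control (2.29, SE 0.20, adjusted p = 7.56e-06). Of 5 polymerase I subunits 4 rose. The exception, polr1a, had 45.2 and 38.9 CPM in young hearts, against 30.0 and 29.3 CPM in control, and narrowly missed the threshold (0.50, SE 0.21, adjusted p = 0.0592).

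In the processome 6 of 12 genes rose and 2 fell, or 7 and 1 with library totals. Of all genes 32.6% rose and 27.6% fell, or 44.7% and 17.5% with library totals. utp15 (ENSDARG00000002720), an early-acting processome gene, had 54.8 and 50.7 CPM in young hearts, against 9.92 and 10.2 CPM in control (2.39, SE 0.21, adjusted p = 8.35e-06). utp23, a later-acting gene of the complex, had 3.23 and 2.71 CPM in young hearts, against 11.9 and 17.3 CPM in control (-2.30, SE 0.27, adjusted p = 4.74e-05). utp15 and utp23 thus lay on opposite sides of control. nop53 had 27.5 and 22.7 CPM in young hearts, against 134 and 195 CPM in control (-2.71, SE 0.28, adjusted p = 1.99e-05). ddx21 had 54.9 and 43.1 CPM in young hearts, against 172 and 224 CPM in control (-2.02, SE 0.24, adjusted p = 5.64e-05). These 3 falls passed in every alternative tried. ncl had 527 and 348 CPM in young hearts, against 261 and 251 CPM in control (0.77, SE 0.26, adjusted p = 0.0245). Its call was lost without young replicate 1 (0.44, adjusted p = 0.308), either control library (0.0858 and 0.0838) or either 7 dpi library (0.0530 and 0.0547).

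With single libraries left out, the largest loss of calls over all genes was a smaller share in young hearts than at 3 dpi. Both are against control. In the set, too, calls between young and control hearts were steadier than those at 3 dpi. The number that fell moved from 6 to 11 without either 7 dpi library, and was 10 with only these 2 groups in the fit. Marker RNAs of several cell types also differed between these hearts. Of 13 cardiomyocyte markers 12 fell and 1 rose, with 0.756% and 0.765% of counts in young hearts against 6.68% and 6.55% in control. Macrophage markers fell in 17 of 18 cases, with 0.00148% and 0.00141% of counts against 0.117% and 0.128%. Of 10 markers of other larval organs 7 rose and 2 fell. They took 0.355% and 0.352% of counts in young hearts against 0.0278% and 0.0476% in control, where apoa2 and crygm2d1 were at 0. All 7 adult erythroid markers fell, with 4 at 0 in young hearts (hbaa1, hbaa2 and both genes annotated hbba1). Embryonic erythroid markers went the other way, with 7 of 8 tested higher and 1 lower, and 0.0480% and 0.0343% of counts in young hearts against 0.000506% and 0.000846% in control. Their part was not tested.

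Set against 3 dpi hearts, young hearts had 12 genes higher and 12 lower, where 28.7% of all genes were higher and 25.3% lower, 54.1% in all. Both young libraries lay above both 3 dpi libraries for 22 genes (44.4% of all genes) and below them for 18 (38.7%). The medians were 0.09 in the set and 0.09 over all genes. Without young replicate 1 they were -0.09 and 0.10, and without young replicate 2 0.27 and 0.06, so this match needs both young libraries. Library totals gave 15 higher and 11 lower, where 32.0% of all genes were higher and 21.4% lower. gar1 had 124 and 125 CPM in young hearts, against 25.8 and 22.6 CPM at 3 dpi (2.37, SE 0.20, adjusted p = 8.43e-06). nhp2 had 67.8 and 66.5 CPM in young hearts, against 18.5 and 20.7 CPM at 3 dpi (1.77, SE 0.20, adjusted p = 4.03e-05). utp15 had 54.8 and 50.7 CPM in young hearts, against 15.6 and 17.1 CPM at 3 dpi (1.69, SE 0.21, adjusted p = 7.88e-05). fbl had 235 and 238 CPM in young hearts, against 77.9 and 66.5 CPM at 3 dpi (1.71, SE 0.21, adjusted p = 8.90e-05). In all 4 genes 3 dpi hearts lay between control and young hearts.

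On the lower side, nop53 had 27.5 and 22.7 CPM in young hearts, against 92.5 and 95.9 CPM at 3 dpi (-1.91, SE 0.27, adjusted p = 0.000217). utp23 had 3.23 and 2.71 CPM in young hearts, against 9.96 and 9.45 CPM at 3 dpi (-1.71, SE 0.27, adjusted p = 0.000401). rrs1 (ENSDARG00000003941), a large subunit assembly gene, had 15.1 and 11.4 CPM in young hearts, against 32.4 and 37.9 CPM at 3 dpi (-1.41, SE 0.27, adjusted p = 0.00130). rrs1 had risen at 3 dpi over control by 1.25 (SE 0.27), with 14.1 and 15.4 CPM in control, a call lost without control replicate 1 (adjusted p = 0.0615) or control replicate 2 (0.0683). Young above 3 dpi above control, in every library, was the order of 20 of the 49 genes, against 12.3% of all genes. Without young replicate 2 fewer genes were lower in young hearts, in the set and over all genes.

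Ratios of raw counts within a library need no scaling, and several pairs of related genes, chosen after their values were seen, changed their balance between groups. No test was run on them, since an exact permutation of 2 against 2 libraries cannot go below 0.333. nop10 over gar1, partners in a particle, was 0.266 and 0.212 in young hearts, 0.597 and 0.725 in control, 0.685 and 0.546 at 3 dpi, and 5.56 and 4.72 at 7 dpi. The 7 dpi libraries were far above the rest. nhp2 over gar1 was likewise highest at 7 dpi, with 0.546 and 0.531 in young hearts, 0.833 and 1.12 in control, 0.719 and 0.915 at 3 dpi, and 3.73 and 3.57 at 7 dpi.

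Ratios of paralogs differed between groups as well. gnl3 over gnl3l (ENSDARG00000020595), both genes of nucleolar GTPases of the nucleostemin family, was 1.15 and 1.41 in young hearts, 0.680 and 0.433 in control, 1.86 and 1.71 at 3 dpi, and 0.198 and 0.309 at 7 dpi. npm1a over npm1b was 22.2 and 17.3 in young hearts, 4.97 and 4.29 in control, 16.3 and 14.9 at 3 dpi, and 22.3 and 16.6 at 7 dpi. Control libraries were thus the lowest for the nucleophosmin pair. The sources used here do not say how reads shared by paralogs were counted, so their split is uncertain. fbl over nop56 was 1.69 and 2.08 in young hearts, 0.402 and 0.311 in control, 0.689 and 0.511 at 3 dpi, and 0.802 and 0.782 at 7 dpi, again lowest in control.

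**Figure D4:**
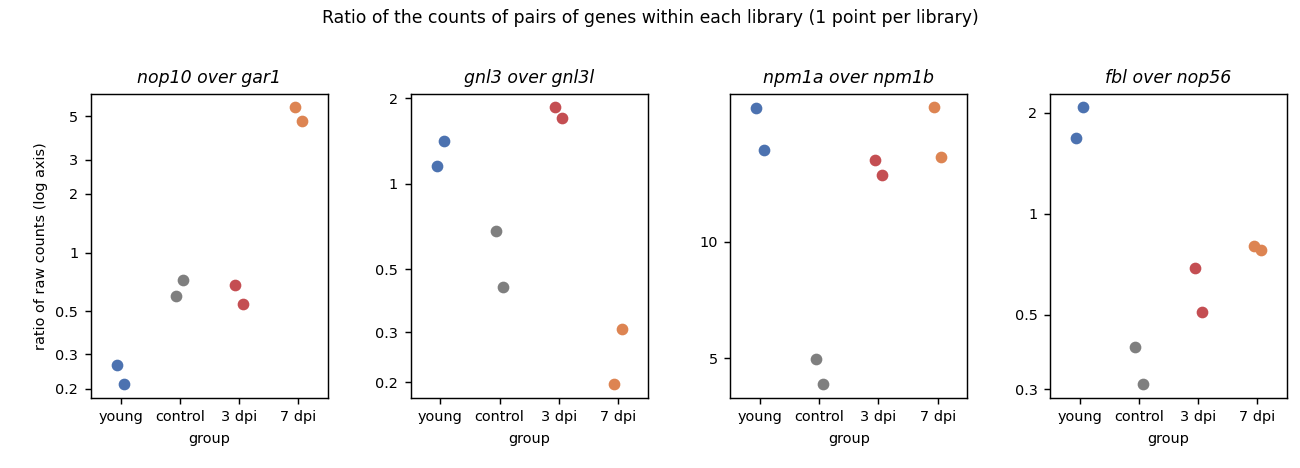
Ratio of the raw counts of 2 genes within each library (log axis, 1 point per library) for nop10 over gar1, gnl3 over gnl3l, npm1a over npm1b and fbl over nop56 in young, control, 3 dpi and 7 dpi hearts. The 7 dpi libraries are highest for nop10 over gar1 (5.56 and 4.72) and lowest for gnl3 over gnl3l (0.198 and 0.309), and control libraries are lowest for npm1a over npm1b and fbl over nop56.

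The PeBoW complex of large subunit assembly, bop1, pes and wdr12, also changed its balance. wdr12 over pes was 1.07 and 1.24 in young hearts, 0.224 and 0.179 in control, 0.316 and 0.296 at 3 dpi, and 0.121 and 0.120 at 7 dpi. bop1 over pes was 0.953 and 0.870 in young hearts, 0.418 and 0.260 in control, 0.515 and 0.466 at 3 dpi, and 0.358 and 0.432 at 7 dpi. Among polymerase I subunits, polr1b over polr1a was 0.619 and 0.759 in young hearts, 0.262 and 0.225 in control, 0.406 and 0.395 at 3 dpi, and 0.217 and 0.304 at 7 dpi. In each of these 3 ratios young hearts were the highest and 3 dpi lay above control.

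A wider list of 138 other ribosome assembly genes, of which 136 were tested, is given for comparison. At 3 dpi 14 of the 136 rose and 3 fell, a share near the 9.05% of all genes that rose, with a median of 0.31, or 58 and 2 with library totals. Of all genes 6.55% fell, and with library totals 18.2% rose and 2.78% fell. snu13b (ENSDARG00000023299), which encodes an RNA-binding core protein of box C/D particles, rose by 1.27 (SE 0.21, adjusted p = 0.00347), with the smallest p of that list. grwd1, a chaperone gene of a large subunit protein, rose by 1.19 (SE 0.23) and pwp2h, of the processome, by 1.09 (SE 0.22). At 7 dpi against control 59 rose and 5 fell with TMM (median 0.57), where 18.7% of all genes rose and 20.0% fell. Library totals gave 5 and 72, where 3.77% of all genes rose and 57.1% fell. exosc6, of the RNA exosome, rose by 2.56 (SE 0.28), the helicase gene ddx54 by 2.76 (SE 0.36) and the processome gene rcl1 by 2.09 (SE 0.27). These 3 rises passed with library totals too, at 1.31, 1.52 and 0.85.

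Between 7 and 3 dpi 38 of the 136 rose and 17 fell with TMM, against 5 and 111 with library totals. Of all genes 22.8% rose and 28.1% fell with TMM, and 4.47% and 67.6% with library totals. riok2, a kinase gene of late small subunit maturation, had 280.1 and 164 CPM at 7 dpi, against 25.3 and 32.5 CPM at 3 dpi (2.94, SE 0.31, or 1.24 with library totals). rcl1 rose by 2.40 (SE 0.28), and gtpbp4, a GTPase gene of the large subunit, by 2.14 (SE 0.25). The rise of gtpbp4 did not pass under library totals (0.45, adjusted p = 0.0609). In young hearts against control 48 rose and 25 fell, or 74 and 9 with library totals, with the TMM share of rises near the 32.6% of all genes. Of all genes 27.6% fell with TMM, and 44.7% rose and 17.5% fell with library totals. snu13b had 147 and 141 CPM in young hearts, against 12.0 and 10.8 CPM in control (3.66, SE 0.22), pwp2h rose by 2.72 (SE 0.23) and nifk by 2.43 (SE 0.22). Against 3 dpi 36 of the 136 were higher and 34 lower in young hearts, near the 28.7% and 25.3% of all genes. Among them were snu13b at 2.38 (SE 0.21), heatr1, of the processome, at 1.83 (SE 0.21) and ubtfl, related to a polymerase I factor, at -1.85 (SE 0.20).

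Cytosolic ribosomal protein genes, the building blocks that these factors assemble, followed another course. Of 82, 0 rose and 1 fell at 3 dpi (median -0.53, or -0.07 with library totals, where 2 rose and 0 fell). The shares of all genes were 9.05% and 6.55%, or 18.2% and 2.78% with library totals. At 7 dpi 80 rose and 1 fell against control (median 2.17), and 52 rose and 1 fell with library totals (median 0.93). The shares of all genes were 18.7% and 20.0%, or 3.77% and 57.1% with library totals. The 82 genes took 13.3% and 11.6% of counts at 7 dpi, against 5.89% and 8.06% in control. The 49 assembly genes took 0.126% and 0.111%, against 0.175% and 0.161%. These classes therefore lay on opposite sides of control in their share of counts. With TMM they did not, with medians at 7 dpi against control of 2.17 for the 82 genes and 0.67 for the 49. In young hearts against control 5 of the 82 rose and 35 fell, or 24 and 28 with library totals. The shares of all genes were 32.6% and 27.6%, or 44.7% and 17.5%. Against 3 dpi 13 of the 82 were higher and 28 lower, or 26 and 28 with library totals. The shares of all genes were 28.7% and 25.3%, or 32% and 21.4%. Between 7 and 3 dpi 81 of 82 rose and 0 fell, or 57 and 2 with library totals, where 22.8% and 28.1% of all genes did, or 4.47% and 67.6%.

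Of 23 Myc family and growth regulator genes, 2 rose and 4 fell at 3 dpi, or 8 and 4 with library totals. Over all genes 9.05% rose and 6.55% fell, or 18.2% and 2.78%. At 7 dpi against control 6 rose and 4 fell, or 1 and 14 with library totals. Over all genes 18.7% rose and 20.0% fell, or 3.77% and 57.1%, so several of these counts lie near the shares of all genes. Between 7 and 3 dpi 7 rose and 4 fell, or 3 and 17. Over all genes these were 22.8% and 28.1%, or 4.47% and 67.6%. In young hearts 7 rose and 11 fell against control, or 9 and 7. Over all genes these were 32.6% and 27.6%, or 44.7% and 17.5%. Against 3 dpi 6 were higher and 8 lower, or 6 and 7, where all genes gave 28.7% and 25.3%, or 32% and 21.4%. myca had 8.97 and 8.73 CPM at 3 dpi, against 14.3 and 9.97 CPM in control, and passed in none of the 5 comparisons with TMM. mycb had 148 and 118 CPM at 3 dpi, against 117 and 109 CPM in control, and did not pass (0.23, SE 0.22, adjusted p = 0.529). At 7 dpi it rose by 1.43 (SE 0.22) with TMM, a call not kept with library totals (0.16, adjusted p = 0.553). In young hearts mycb had 26.9 and 23.5 CPM, against 117 and 109 CPM in control (-2.17, SE 0.23), whereas mycn had 25.9 and 22.2 CPM, against 7.21 and 7.73 CPM (1.69, SE 0.29). The other genes of the list called at 3 dpi were rps6kb1a and cdkn1a, higher, and mxi1, eif4ebp1, eif4ebp3 and eif4ebp3l, lower. eif4ebp3l, which encodes a translation repressor of the mTOR pathway, had the largest of these changes (-1.80, SE 0.25).

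Cell cycle genes rose in 7 of 32 cases at 3 dpi, with a median of 1.52, and in 25 of 32 in young hearts, with a median of 2.28, and none fell in either comparison. Of all genes 9.05% and 32.6% rose, and 6.55% and 27.6% fell. With library totals 14 and 29 rose, where 18.2% and 44.7% of all genes did. Against 3 dpi 11 were higher and 0 lower in young hearts, where 28.7% of all genes were higher and 25.3% lower. At 7 dpi 3 rose and 5 fell against control, where 18.7% of all genes rose and 20.0% fell. With library totals 0 rose and 19 fell, where 3.77% of all genes rose and 57.1% fell. Between 7 and 3 dpi 1 rose and 23 fell, or 0 and 30. Of all genes 22.8% rose and 28.1% fell, or 4.47% and 67.6%. The 32 cell cycle genes took 0.202% and 0.193% of counts in young hearts, 0.0362% and 0.0186% in control, 0.123% and 0.0477% at 3 dpi, and 0.00883% and 0.0121% at 7 dpi. By share of counts the order of groups was the same as for the 49 assembly genes, with young hearts highest and 7 dpi lowest. With TMM this did not hold. The 49 genes had summed CPM of 3013 and 2448 at 7 dpi, against 1555 and 1689 in control. Cell cycle genes had 212 and 267 at 7 dpi, against 322 and 194 in control. The median at 7 dpi against control was -0.32 for cell cycle genes and 0.67 for the 49 genes.

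**Figure D5:**
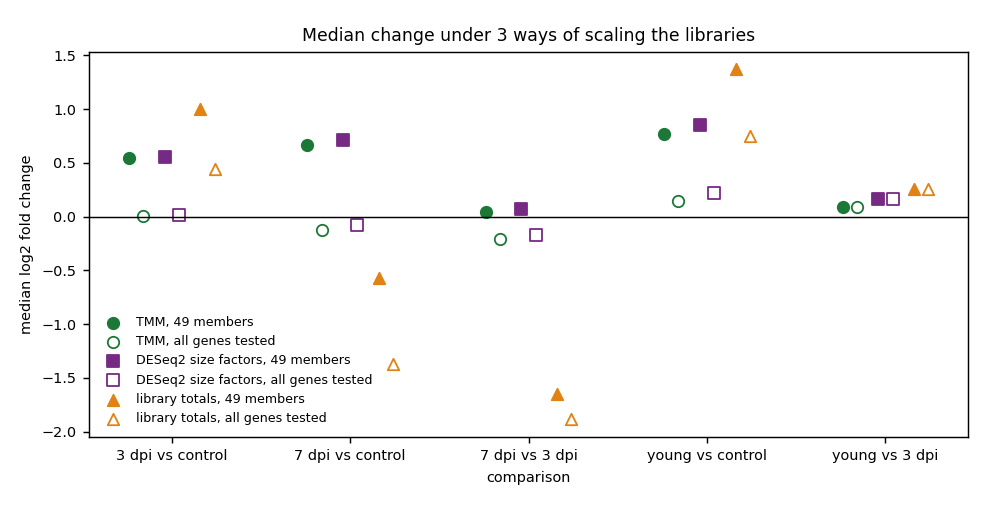
Median log2 fold change (y axis) of the 49 assembly genes (filled) and of all genes tested (open) in the 5 comparisons (x axis), with TMM, with DESeq2 size factors and with library totals. At 7 dpi against control, library totals lower the median of the 49 genes from 0.67 with TMM to -0.57. They lower that of all genes from -0.13 to -1.37, and the distance between the medians is nearly fixed by construction. For young against 3 dpi hearts the 49 genes and all genes have equal medians with TMM (0.09 and 0.09), a match that is lost without either young library.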

How the data were processed

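Whole hearts were profiled by RNA sequencing of TRIzol-extracted RNA on an Illumina HiSeq instrument, and per the labels' protocols the libraries were sequenced together. The authors deposited raw read counts per Ensembl gene, and per the submitters' processing notes TopHat2 2.0.13, HTSeq and the GRCz10 build were used. The sources used here give neither strand setting nor annotation release. A deposited RPM table (reads scaled to library total) for the adult libraries equalled count over library total for 100% of its 23350 genes (relative tolerance 0.0001), with the control replicate numbers exchanged, and served for gene symbols only. The count table's own sample names were followed.

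The counts were fitted with edgeR 4.0.16 in R 4.3.3 (filterByExpr, TMM, quasi-likelihood F test) over all 8 libraries and 4 groups, with 4 residual degrees of freedom. Benjamini-Hochberg adjustment covered all 19330 genes that passed the filter, with a threshold of 0.05 for a call. Standard errors are the absolute log2 fold change over the square root of F. The procedure was tested on simulated data. Members, lists and tests were chosen with earlier results of these data known. Values by library are given for the 4 genes of smallest p called in the commoner direction of each comparison, up to 3 in the other direction, and the gene of highest mean CPM per role. From the other assembly genes the 3 of smallest p are named, and from the Myc list myca, mycb, mycn and called genes.

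Alternatives were library totals, DESeq2 size factors, DESeq2 1.42.0, other count filters, only the groups compared, a replicate block and each library left out. Fits without both 7 dpi libraries were chosen after seeing the data. Sequences, protein lengths and coordinates were not used here.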

Additional observations from a re-analysis of the deposited data

Results flagged for a closer look

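Both genes described here were called in opposite directions against control at 7 dpi and 3 dpi. They were listed because 7 dpi and 3 dpi differed from each other by a direct test with edgeR. Opposite calls against the same control libraries make such a difference likely. ddx21, a nucleolar RNA helicase gene, had 371 and 309.7 CPM at 7 dpi, against 111 and 104 CPM at 3 dpi (log2 fold change 1.66, SE 0.24, adjusted p = 0.000307). Under library totals the same difference was -0.04 (adjusted p = 0.894), so its direction depends on the scaling. At 7 dpi against control the fold of ddx21 was 0.78, or -0.47 under library totals and 0.58 without control replicate 1. It was 0.62 without 7 dpi replicate 1 and 0.86 without 7 dpi replicate 2. The call was lost in each of these alternatives. nop2, an rRNA methyltransferase gene, had 10.1 and 8.22 CPM at 7 dpi, against 39.7 and 37.5 CPM at 3 dpi (-2.08, SE 0.24, adjusted p = 9.49e-05). Under library totals it was -3.78. That scaling lowered the median over all genes from -0.21 to -1.89, so it is no check of a fall.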

How the results depend on the processing

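Under library totals 18.2% of all genes rose and 2.78% fell at 3 dpi against control, and 3.77% and 57.1% at 7 dpi. Between 7 and 3 dpi 4.47% rose and 67.6% fell, and 17.5% fell between young and control hearts. In the set, library totals gave 35 higher and 0 lower at 3 dpi and 2 higher and 23 lower at 7 dpi against control. Between 7 and 3 dpi they gave 0 higher and 42 lower, and for young against control hearts 3 lower. Among called genes they turned 15 folds at 7 dpi against control: bop1 (-0.28), ddx10 (-0.35), ddx21 (-0.47), dkc1 (-0.33), gnl3l (-0.43), nat10 (-0.66), nip7 (-0.49), nop53 (-0.17), nop58 (-0.23), pes (-0.50), polr1c (-0.23), rrp12 (-0.69), rrp15 (-0.36), utp6 (-0.34) and wdr75 (-0.13). Between 7 and 3 dpi they turned ddx10 (-0.97), ddx21 (-0.037), gnl3l (-0.54), nhp2 (-0.45), rrp1 (-0.84), utp15 (-1.05) and utp6 (-0.98), and between young and control hearts nob1 (0.050). The number lower at 3 dpi than in control, 1, was 3 with no filter, 3 with DESeq2, 0 with only the groups compared and 2 without both 7 dpi libraries. The number lower in young than in control hearts, 6, was 10 with only the groups compared and 11 without both 7 dpi libraries. Over all genes 6.57%, 8.18%, 4.47% and 6.75% were lower at 3 dpi in the fits named, in that order. In young hearts 29.5% and 29.4% were lower. Leaving out each library in turn gave 3 to 15 higher and 0 to 2 lower at 3 dpi against control, 12 to 23 higher and 2 to 5 lower at 7 dpi against control, and 8 to 12 higher and 10 to 14 lower between 7 and 3 dpi. Young hearts had 22 to 25 higher and 4 to 11 lower against control, and 9 to 13 higher and 6 to 14 lower against 3 dpi. The lone library left in a group was assumed to vary like the others. Numbers over all genes changed too, but not always in the same direction or to a like degree. Whether any of these changes is particular to the set was not tested. The cause was not tested. The replicate block gave 14 higher and 1 lower at 3 dpi and 22 higher and 5 lower at 7 dpi against control, 12 higher and 13 lower between 7 and 3 dpi, 25 higher and 6 lower for young against control, and 12 higher and 12 lower for young against 3 dpi. With the block 7.95% of all genes rose and 5.76% fell at 3 dpi, and 17.4% and 18.05% at 7 dpi, against control. Between 7 and 3 dpi these shares were 21.4% and 26.1%. They were 30.75% and 26.1% for young against control, and 27.0% and 23.7% for young against 3 dpi. No batch is stated for the replicate numbers, and deviations of same-numbered libraries correlated at -0.140 to 0.0679 over 6 pairs of groups. utp3 and rrp36 rest on few reads at 7 dpi.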
